A study of Homo sapiens with 19 samples.

Results

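Tau, the product of MAPT, was examined here together with 4 other microtubule-associated proteins (MAPs), MAP1A, MAP1B, MAP2 and MAP4, and with 5 genes of tau phosphorylation, GSK3B, CDK5, CDK5R1, MARK1 and MARK2. These 10 genes were listed by name, not by a rule on measured values, but with earlier results of these data known. All 10 were found among the 19942 rows of protein-coding genes in the TPM and eCLIP tables. They made up 179 of the 256980 transcripts in the rRNA-depleted table. The study names MAPT as an RNA that falls when the stress granule proteins G3BP1 and G3BP2 are depleted and after sodium arsenite (AS), and the question here was whether the other 9 genes share that fall. As MAPT was singled out on these samples, its own fall is a description and not independent evidence.

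All libraries came from SH-SY5Y, a human neuroblastoma cell line. Poly-A RNA-seq was made of cells given control siRNA (siCtrl), siRNA against G3BP1 (siG3BP1) or siRNA against G3BP2 (siG3BP2), and of AS-treated cells as cleared lysate (Total) and as stress granule cores precipitated from that lysate with an antibody against G3BP1 (SG). rRNA-depleted RNA-seq was made of untreated (ctrl) and AS-treated (AS) cells. Each of these 7 groups held 1 library, so that differences between them have no replicate check and carry no p-value. eCLIP, which crosslinks a protein to the RNA it touches and sequences the RNA pulled down with it, was made in duplicate for each of the 2 proteins, G3BP1 and G3BP2, without treatment (Ctrl) and after AS. The label of the rRNA-depleted AS library gives 500 μM AS for 1 h, while a shared note on the other libraries gives 50 mM for 1 h and stands on the siRNA and untreated eCLIP libraries as well, so the labels do not settle which siRNA cultures met AS. The methods name no AS step for the knockdown.

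MAPs bind along microtubules and stabilise them. Tau and MAP1B are known mainly from axons, MAP2 from dendrites, MAP1A from mature neurons and MAP4 from most cell types. Tau leaves the microtubule when it is phosphorylated at many sites, as in the tangles of Alzheimer's disease. GSK3B and CDK5 are proline-directed kinases that phosphorylate tau, CDK5R1 encodes p35, an activator of CDK5, which is inactive without such a partner, and MARK1 and MARK2 phosphorylate the microtubule-binding repeats. Stress granules are condensates of RNA and protein that form when translation initiation stops, and G3BP1 and G3BP2 are needed to build them.

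The genes differ widely in size, by the GENCODE annotation of GRCh38. MAPT lies on chromosome 17 from 45894527 to 46028334 on the plus strand, spans 134 kb, and has a longest protein-coding transcript of 6815 nt with a 3′UTR of 4163 nt. MAP1B (chromosome 5, 72107234 to 72209565) and MAP1A (chromosome 15, 43510958 to 43531620) had the longest transcripts, of 11790 and 10553 nt, followed by MAP2 with 10012 nt and MAP4 with 9232 nt. CDK5 (chromosome 7, 151053815 to 151057897) was the shortest, with 1122 nt and a 3′UTR of 194 nt. The longest coding transcripts of GSK3B, MARK1, MARK2 and CDK5R1 measured 7743, 5370, 4560 and 3948 nt. MAPT shares its locus with STH on the same strand and with MAPT-AS1 on the opposite strand, and CDK5 overlaps SLC4A2 on the opposite strand. Reads there could be assigned to either gene where strand was not used, and for STH strand would not separate them from MAPT.

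The study describes a palindromic motif in G3BP-bound RNA, and both of its spellings, CCAGCCTGG and CCAGGCTGG, which are reverse complements of each other, were searched on the sense strand of the longest transcript of each gene. Sites with 10 bases on either side are shown for MAPT, for MAPs that were compared with it, and for CDK5, with the motif in capitals and coordinates in GRCh38.
MAPT, coding sequence, chr17:45978392-45978420, plus strand: ggagacacccCCAGCCTGGaagacgaagc
MAPT, coding sequence, chr17:45982929-45982957, plus strand: gcgcccacgtCCAGCCTGGaccctgcgga
MAP1A, coding sequence, chr15:43528134-43528162, plus strand: accaaggcccCCAGCCTGGattcctcact
MAP2, coding sequence, chr2:209692855-209692883, plus strand: actcttgttgCCAGCCTGGaagacatgaa
MAP4, 3′UTR, chr3:47852665-47852693, minus strand: ctctcactccCCAGCCTGGgcccatctcc
CDK5, 3′UTR, chr7:151053971-151053999, minus strand: cccccggcctCCAGGCTGGggcctggcct

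In these longest transcripts MAPT held 2 sites and was the only one of the 10 with more than 1. Over the 30 annotated transcripts of MAPT the mean was 1.13 sites, beside 1 for MAP1A. MAP1A, MAP2, MAP4, CDK5, MARK1 and MARK2 held 1 each, and MAP1B, GSK3B and CDK5R1 held none. Thus 7 of the 10 genes had the motif, against 35.4% of 19892 protein-coding genes. Of the 5015 genes whose longest transcript was in the range from 5000 to 12000 nt, 53.9% had it. CDK5 and CDK5R1, at 1122 and 3948 nt, lie below that range. For MARK1 and MARK2 the transcripts searched were not the longest coding ones. They were MARK1-208 and MARK2-216, which retain an intron and have no annotated coding sequence. Over whole genes, introns included, the motif occurred 0.269 times per kb in the median of the 10 genes and 0.403 times per kb in the median of all. A match describes letters in the annotated sequence and is not a measured binding site.

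In siCtrl cells the 10 RNAs lay between 7.26 and 65.3 TPM, a level scaled to transcript length and to the size of the library. CDK5 and MAP4 were the most abundant at 65.3 and 63.6 TPM, followed by MAP1B at 35.5, MARK2 at 24.5, MAP1A at 19.6 and CDK5R1 at 18.9 TPM. MAPT at 13.6 TPM was close to MAP2 at 12.5 TPM, and MARK1 at 9.66 and GSK3B at 7.26 TPM were the lowest. The siRNA targets fell in the libraries labelled for them, with G3BP1 at 18.7 TPM in siCtrl, 6.0 in siG3BP1 and 16.5 in siG3BP2, and G3BP2 at 38.1, 39.4 and 11.4 TPM. Of 12 neuroblastoma markers, 11 were above 1 TPM in each poly-A library, TH being the exception at no more than 0.389 TPM, and of 6 markers of other cell types COL1A1 was above 1 TPM, at 9.42 to 41 TPM.

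**Figure D1:**
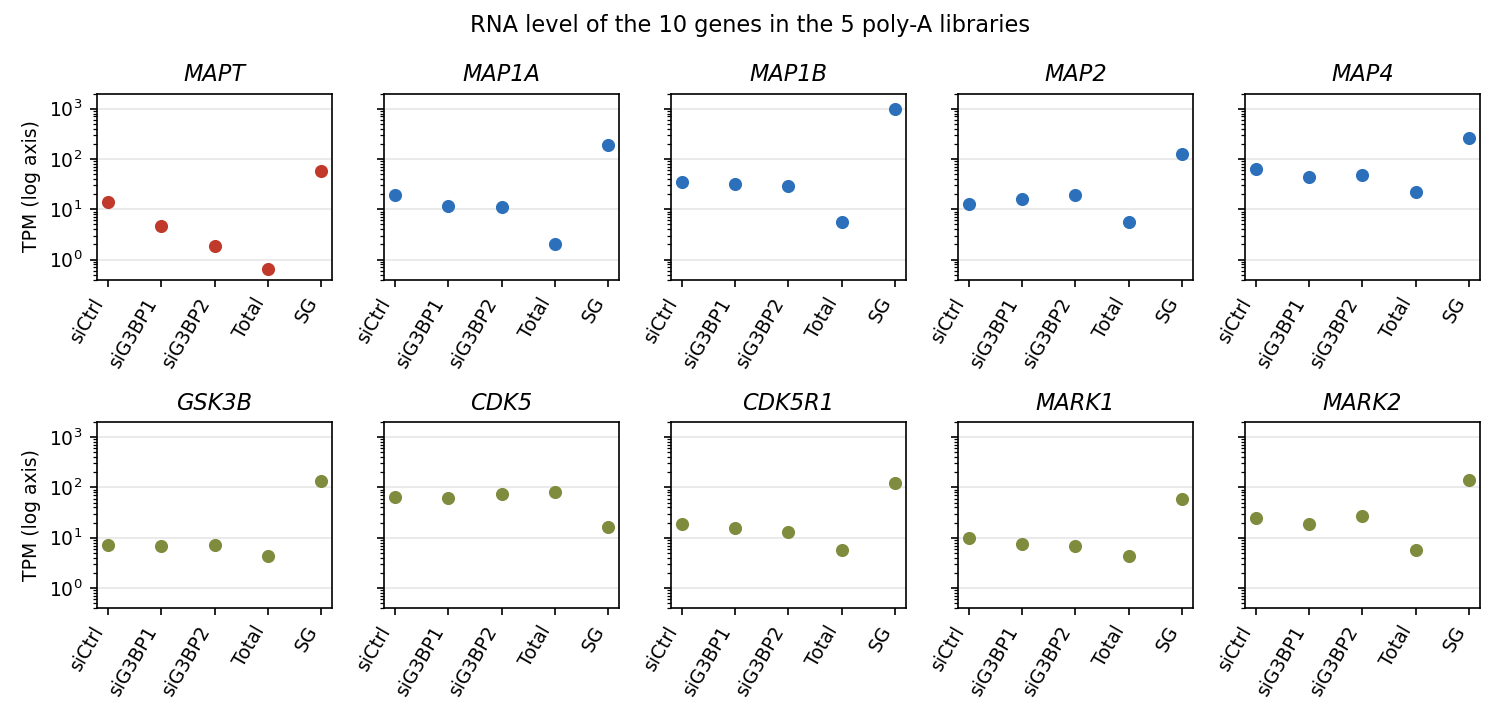
TPM of each gene (log axis) in the 5 poly-A libraries, 1 point per library, with MAPT in red, other MAPs in blue and the kinase genes in green. MAPT drops from 13.6 TPM in siCtrl to 0.656 TPM in Total, 9 of the 10 genes are highest in SG, and CDK5 is lowest there.

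MAPT was the only one of the 10 genes to fall more than 2-fold in either knockdown. It measured 13.6 TPM in siCtrl, 4.68 TPM in siG3BP1 and 1.86 TPM in siG3BP2, and the log2 fold, computed on TPM + 1 throughout, was -1.36 and -2.36. A gene was called higher or lower when this fold passed 2-fold and the higher library was above 1 TPM. By that rule 1.98% of 12280 genes were lower and 1.12% higher in siG3BP1, and 2.89% of 12229 were lower and 1.23% higher in siG3BP2. Of 7035 genes above 10 TPM in siCtrl, 44 had a TPM ratio as low as MAPT or lower in siG3BP1 (0.625%), 12 in siG3BP2 (0.171%), and 4 in both, with MAPT itself counted in each of these numbers. In bulk RNA, a loss in part of the cells and a smaller loss in each cell cannot be told apart.

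The other MAPs stayed within 2-fold, on both sides of 0. MAP1A came closest to MAPT, with 19.6 TPM in siCtrl, 11.5 in siG3BP1 and 11.3 in siG3BP2, log2 folds of -0.72 and -0.74. MAP4 went from 63.6 to 44.3 and 47.2 TPM (-0.51 and -0.42), and MAP1B from 35.5 to 32.3 and 29.1 TPM (-0.13 and -0.28). MAP2 went the other way, from 12.5 to 16.0 and 19.1 TPM, log2 folds of 0.34 and 0.58. MAPT and MAP2 began at nearly the same level, so their ratio moved from 1.09 in siCtrl to 0.292 in siG3BP1 and 0.0971 in siG3BP2.

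The tau kinases also stayed within 2-fold. GSK3B measured 7.26, 6.90 and 7.19 TPM in siCtrl, siG3BP1 and siG3BP2, and CDK5 measured 65.3, 62.9 and 73.7 TPM. CDK5R1 measured 18.9, 15.3 and 13.1 TPM, a log2 fold of -0.29 and -0.50. MARK1 measured 9.66, 7.58 and 6.97 TPM (-0.31 and -0.42), and MARK2 24.5, 18.9 and 26.8 TPM (-0.36 and 0.12). Over the 10 genes the median log2 fold was -0.30 in siG3BP1 and -0.35 in siG3BP2, beside -0.08 and -0.12 over all genes tested. Both knockdowns were set against the same siCtrl library, so a high or low value in it moves both folds alike. At a limit of 1.5-fold in place of 2-fold, MAP1A joined MAPT as lower in each knockdown.

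**Figure D2:**
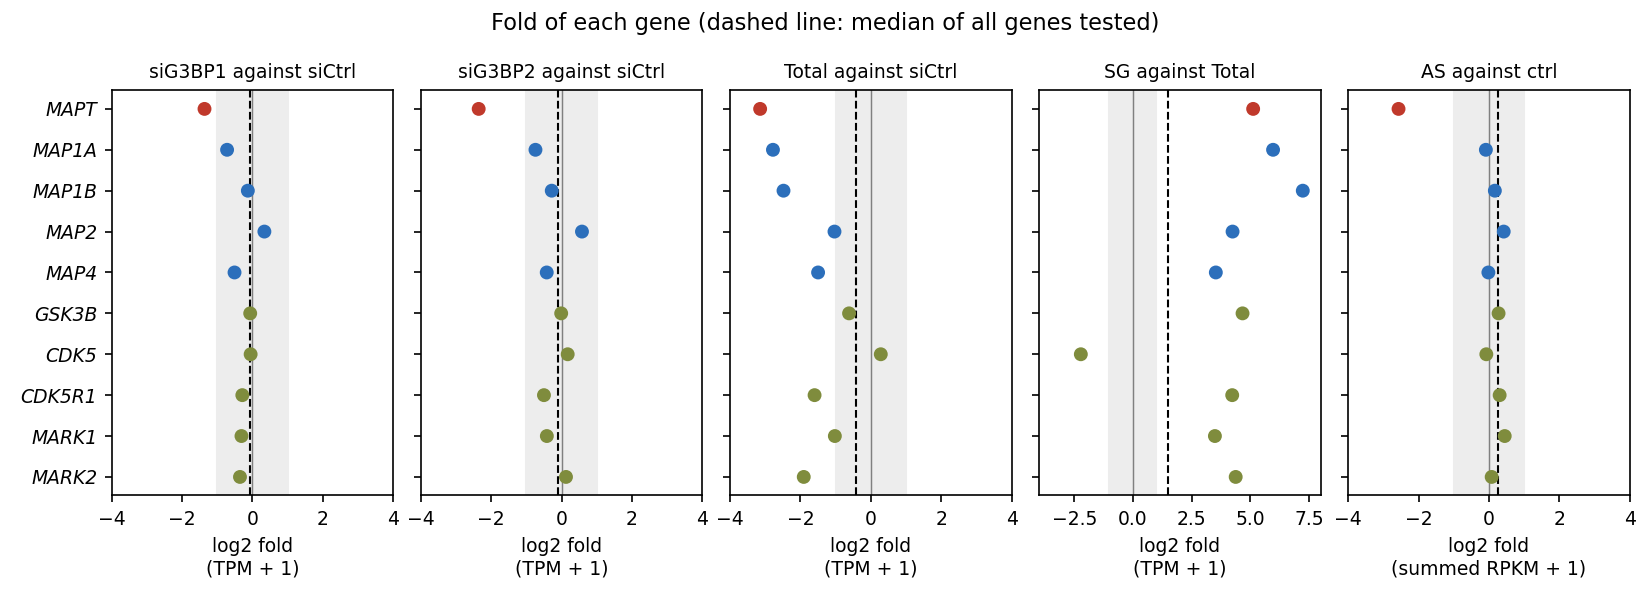
log2 fold of each gene in 5 comparisons, with the median of all genes tested as a dashed line and the range within 2-fold in grey; the first 4 panels use TPM + 1 and the last RPKM summed over transcripts, plus 1, and the axis of the SG panel is wider. MAPT alone lies outside the grey range in both knockdowns (-1.36 and -2.36) and in AS against ctrl (-2.57), while 8 genes lie below it in Total against siCtrl.

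Genes around tau were followed in 3 further lists of 25 other MAPs, 20 other tau kinases and their activators, and 12 phosphatases with their partners. In each knockdown 1 of the 25 MAPs was called lower and none of the 25 higher. It was CLIP1, which tracks growing microtubule ends and was picked out after its values were seen, at 7.65 TPM in siCtrl, 1.47 in siG3BP1 and 1.66 in siG3BP2. None of the 20 kinases and 12 phosphatases was called in either knockdown. TTBK1, tau tubulin kinase 1, had the smallest fold of list genes above 10 TPM in both, with 13.2 TPM in siCtrl, 8.04 in siG3BP1 and 6.10 in siG3BP2, the last just short of 2-fold at a log2 fold of -1.0. GSK3A, the paralog of GSK3B, had the largest in siG3BP1 (133 to 187 TPM), and CLASP2, a microtubule plus-end protein, in siG3BP2 (6.72 to 10.1 TPM). The list medians were -0.20, -0.18 and -0.07 for siG3BP1 and -0.18, -0.22 and 0.02 for siG3BP2, in the order MAPs, kinases and phosphatases.

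In the lysate of AS-treated cells the fall was shared. Compared with siCtrl, 8 of the 10 genes were called lower in Total and none higher, where 19.6% of 12173 genes were lower and 1.28% higher. These libraries differ in siRNA and in the clearing of the lysate by centrifugation, and whether they differ in AS the labels leave unsettled, so the parts of these cannot be told apart. MAPT went from 13.6 to 0.656 TPM, a log2 fold of -3.14, and 17 of the 7035 genes above 10 TPM in siCtrl had a ratio as low or lower (0.242%). MAP1A followed with 19.6 to 2.01 TPM (-2.78) and MAP1B with 35.5 to 5.55 TPM (-2.48). MARK2 measured 5.82 TPM in Total (-1.90), CDK5R1 5.59 (-1.60), MAP4 21.9 (-1.50), MAP2 5.60 (-1.03) and MARK1 4.26 (-1.02). GSK3B at 4.39 TPM (-0.62) and CDK5 at 79.8 TPM (0.29) were the genes not called.

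The median of all genes was itself low in this comparison, at -0.41. Relative to it MAPT stood at -2.73, MAP1A at -2.37, MAP1B at -2.07, MARK2 at -1.49, CDK5R1 at -1.18 and MAP4 at -1.08, while MAP2 and MARK1 at -0.62 and -0.61 were within 2-fold of it. In absolute terms the MAPT to MAP2 ratio was 0.117 in Total against 1.09 in siCtrl. Of the 3 lists, 7 of 25 other MAPs, 9 of 20 other kinases and none of 12 phosphatases were called lower and none of these genes higher. TTBK1 was again the lowest of the list genes above 10 TPM, at 2.48 TPM in Total, and KATNA1, the catalytic subunit of the microtubule-severing katanin, the highest (9.75 to 13.3 TPM).

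In the SG cores 9 of the 10 RNAs were higher than in the lysate and CDK5 was lower, in a comparison where 62.9% of 13560 genes were higher and 9.45% lower. MAP1B was the most enriched, from 5.55 TPM in Total to 989 TPM in SG, a log2 fold of 7.24, which exceeded that of 13554 of the genes tested. MAP1A rose from 2.01 to 188 TPM (5.97) and MAPT from 0.656 to 56.8 TPM (5.12). MAPT lay under 1 TPM in Total, so that its fold depends on the added 1 TPM, and its plain TPM ratio was 86.5. GSK3B measured 136 TPM in SG (4.67), MARK2 141 (4.38), MAP2 124 (4.25), CDK5R1 123 (4.23), MAP4 264 (3.53) and MARK1 58.3 TPM (3.49). CDK5 fell from 79.8 to 16.3 TPM, a log2 fold of -2.22, so the kinase and CDK5R1, which encodes an activator of it, moved in opposite directions.

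The median of all genes was 1.51 in this comparison and that of the 10 genes 4.31. Relative to the median of all, MAP1B stood at 5.73, MAP1A at 4.46, MAPT at 3.61 and CDK5 at -3.73, and the lowest of the 9 enriched genes, MARK1, at 1.98. By level, CDK5 was 1st of the 10 in siCtrl and 10th in SG, GSK3B was 10th and 5th, and the other 8 genes moved by at most 2 places. Across the 10 genes the log2 fold went with the log10 length of the longest coding transcript (Pearson's r = 0.887, Spearman's rho = 0.685). Without CDK5 the rho was 0.567 over 9 genes. The r of these 9 was 0.607, but it used the length without the log and is not on the scale of 0.887. This is a description, as the points share both libraries. Of the lists, 21 of 25 other MAPs and 15 of 20 other kinases were called higher and none of them lower, with medians of 2.77 and 1.78. CLIP1 had the largest fold (0.402 to 57.0 TPM). Of the 12 phosphatases and partners 3 were called higher, the catalytic subunit PPP3CA of calcineurin (5.48 to 47.9 TPM) and the PP2A subunits PPP2R1B (5.14 to 28.5 TPM) and PPP2R5D (50.1 to 123 TPM). PPP1CA (230 to 87.5 TPM), the catalytic subunit of PP1, was called lower. Apart from CLIP1 these were named after their values were seen.

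The rRNA-depleted libraries compared AS-treated with untreated cells without siRNA or lysate clearing. Here the fall was again that of MAPT alone, but on few reads. The values in this table are RPKM, reads scaled by transcript length in kb and by library depth, in which a read counts on every transcript that it overlaps, and nearly all values of transcripts with a known length could be turned back into whole reads. Summed over its transcripts, MAPT went from 9.09 to 0.700 RPKM, a log2 fold on RPKM + 1 of -2.57. It was the only one of the 10 genes called lower, and none was called higher, where 0.560% of 12683 protein-coding genes were lower and 3.64% higher. The median of all was 0.27, and relative to it MAPT lay lower still.

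Among MAPT transcripts with a known length, MAPT-201, MAPT-203, MAPT-204 and MAPT-209 held the most reads, each 17 in ctrl and 1 in AS. MAPT-201, the longest of these, was used as the most-read transcript. Its ratio was 0.0693 with a 95% exact interval from 0.00166 to 0.442, which covers counting error only. The table held 18 MAPT transcripts, of which 16 were above 0, and MAPT-202 and MAPT-210 were above 1 RPKM. MAPT-202 measured 1.02 RPKM in ctrl and 0.0801 in AS, on 15 reads and 1 read, and MAPT-210 measured 1.18 and 0.0997 RPKM, on 14 reads and 1 read. No MAPT transcript taken alone passed 2-fold on RPKM + 1, as 0.470% of all transcripts above 1 RPKM did downwards, the largest fall being that of MAPT-210 at -0.99, so the call rests on the sum over transcripts that largely share the same reads. Of 1516 protein-coding genes with 10 to 30 reads in ctrl, 6 (0.396%) had at most 1 read in AS and 73 (4.82%) fell by more than 2-fold. MAPT-AS1, MAPT-IT1 and STH were listed at 0 in both libraries.

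The level of MAPT itself differed between siCtrl and ctrl, the references of these comparisons. It had 0.188 RPKM for MAPT-201 in ctrl, while the 2154 genes at 10 to 20 TPM in siCtrl had a median of 3.56 RPKM for their most-read transcript, with 57 of them (2.65%) below MAPT. MAPT-204, MAPT-203 and MAPT-209, which are shorter and tied with MAPT-201 in reads, had 0.227, 0.490 and 0.945 RPKM in ctrl. The 5th percentile of the 2154 genes was 0.488 RPKM, so the rank of MAPT depends on which tied transcript is taken. The ratio to MAP2 by most-read transcripts depends on it too. The MAPT to MAP2 ratio, 1.09 by TPM of genes in siCtrl, was 0.0151 in ctrl and 0.000845 in AS by RPKM of the most-read transcripts, MAPT-201 and MAP2-218, and 0.0417 and 0.0024 by RPKM summed over transcripts. The libraries differ in poly-A selection, siRNA, unit and processing, and by their labels possibly in AS, and the part of each in this gap was not tested.

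The other 9 genes were well covered and stayed within 2-fold, both summed over transcripts and on their most-read transcripts. Their most-read transcripts held 220 to 11095 reads in ctrl, and their ratios ran from 0.921 to 1.45, where the median ratio over all protein-coding genes above 1 RPKM in both libraries was 1.21. MAP1A had a ratio of 0.941 (interval 0.870 to 1.02, 1436 to 1147 reads), MAP1B of 1.11 (1.08 to 1.14, 11095 to 10442 reads) and MAP4 of 1.01 (0.934 to 1.09, 1514 to 1294 reads). MAP2 had a ratio of 1.24 (1.16 to 1.33, 1592 to 1676 reads). The intervals of these 4 MAPs all lie above that of MAPT.

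GSK3B had a ratio of 1.17 (1.08 to 1.28), MARK2 of 1.05 (0.911 to 1.20) and CDK5 of 0.921 (0.75 to 1.13). Taken alone, 4 of the 48 GSK3B transcripts above 1 RPKM were called lower, beside 0.470% of all transcripts above 1 RPKM. As for MAPT, they held few reads: GSK3B-237, GSK3B-259 and GSK3B-264 went from 12 to 1, and GSK3B-256 from 14 to 3. A read counts on every transcript that it overlaps, so those with equal numbers may hold the same reads and need not be separate falls. No single transcript of MAPT or of the remaining genes was called. The highest ratios were those of CDK5R1 at 1.45 (1.24 to 1.71, 278 to 343 reads) and MARK1 at 1.40 (1.18 to 1.66, 261 to 310 reads), and neither passed 2-fold. MAP1A and MAP1B, which were lower in Total than in siCtrl by 2.78 and 2.48 on the log2 scale, thus had AS to ctrl ratios near 1 here, and MAPT was low in both. In the lists, 1 of 25 other MAPs was called higher, KATNA1 (12.8 to 27.3 RPKM summed, 49 to 89 reads), and 1 of 20 other kinases lower, PRKACA, the catalytic subunit of protein kinase A (15.7 to 5.79 RPKM summed). The most-read transcript of PRKACA went from 45 to 22 reads, a ratio of 0.576 (0.329 to 0.979). No phosphatase was called, and the list medians were 0.23, 0.19 and 0.25.

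**Figure D3:**
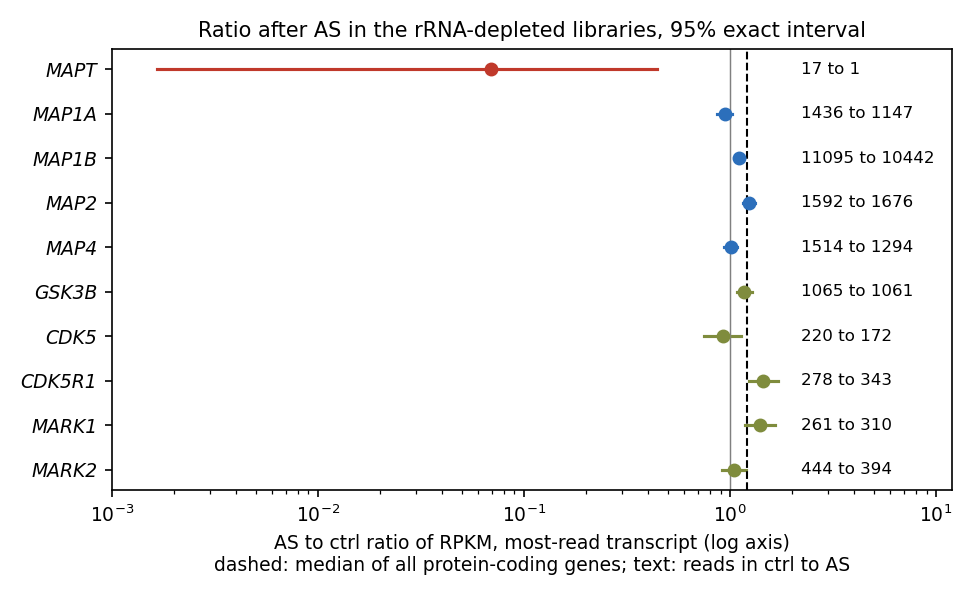
AS to ctrl ratio of RPKM (log axis) for the transcript with the most reads of each gene, with 95% exact intervals for counting error, reads in ctrl and AS at the right, and the median ratio of all protein-coding genes, 1.21, as a dashed line. MAPT at 0.0693 rests on 17 reads and 1 read, and the other 9 ratios lie between 0.921 and 1.45.

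The eCLIP table gives log10 of a whole number plus 1 for each gene and library, and its column names speak of peaks. The numbers sum to between 4268911 and 26179736 per library, and replicate 2 had the smaller total in each of the 4 groups, so the libraries were scaled to the same total. After scaling, GSK3B was highest with a median of 3.97 over the 8 libraries, followed by MARK1 at 3.70, MAP4 at 3.56, MAP2 at 3.53 and MARK2 at 3.37. MAP1B stood at 2.90, MAPT at 2.37, MAP1A at 2.04, CDK5R1 at 1.42 and CDK5 at 1.41. The ranges over libraries of GSK3B (3.88 to 4.0) and MAP1B (2.65 to 2.97) overlapped with those of no neighbour, whereas MARK1, MAP4, MAP2 and MARK2 overlapped in turn, as did MAPT (2.06 to 2.47) with MAP1A (1.86 to 2.26) and CDK5R1 with CDK5. CDK5 and CDK5R1 rested on numbers of 4 to 53 and 14 to 37 before scaling.

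This order was not that of the RNA levels. Across the 10 genes the scaled log10 value went with the log of the genomic span, introns included (Pearson's r = 0.856 to 0.919 in the 8 libraries). It did not go with the siCtrl level (r = -0.526 to -0.340). The relation to span is not particular to these genes, as over 19910 genes its r was 0.798 to 0.835. Values were therefore also expressed per kb of span. MAPT then had 0.842 to 2.2 per kb, below the all-gene median of 6.24 to 6.67 per kb in each library and at the 11.2th to 19.0th percentile of all genes. Per kb of the longest transcript in place of the span, MAPT lay higher among all genes, at a median percentile of 38.4 over the 8 libraries, above CDK5R1 at 15.4, MAP1A at 20.3 and CDK5 at 31.4. MAP2, whose level in siCtrl was close to that of MAPT, had 9.29 to 12.4 per kb, above that median in each library. MARK1 (33.2 to 41.9 per kb), GSK3B (27.8 to 36.5) and MARK2 (16.4 to 41.4) lay at median percentiles of 97.7, 97.2 and 96.5. MAP4 and MAP1B had median percentiles of 83.0 and 57.4, and CDK5, CDK5R1 and MAP1A of 48.7, 45.5 and 41.4. The size-matched input libraries were not analysed here, and whether the deposited values are already relative to input is not stated.

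Neither the motif nor the SG fold ordered the genes as eCLIP did. MAPT had 0.710 motifs per kb of span with the lowest median eCLIP value per kb of span, and MARK1 0.235 motifs per kb with the highest. Across the 10 genes the r between motifs per kb and log10 eCLIP value per kb of span was 0.09 (rho = 0.13), and that between the log10 eCLIP value per kb and the SG fold was -0.03 (rho = -0.35). These too are descriptions over 10 genes.

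**Figure D4:**
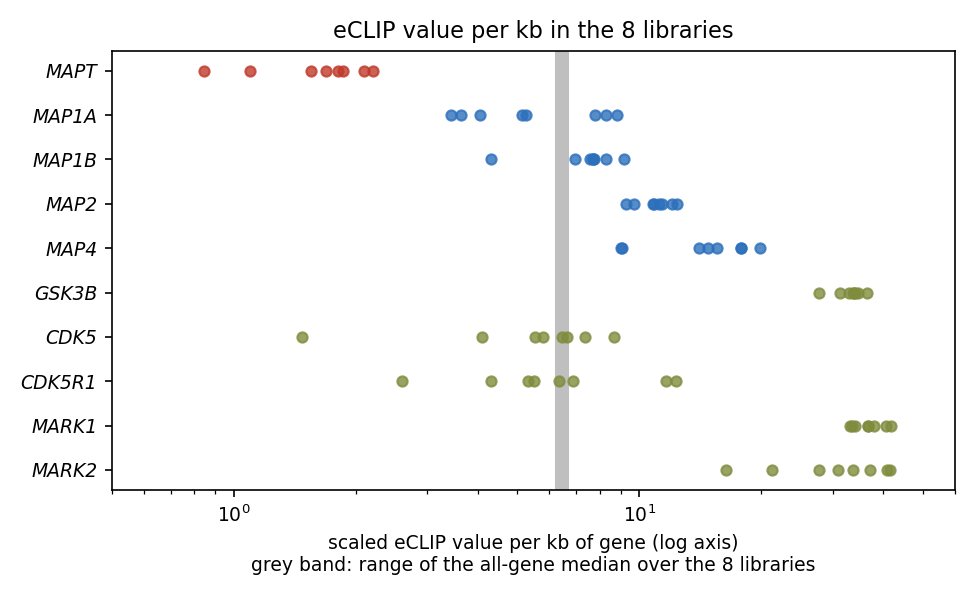
Scaled eCLIP value per kb of genomic span (log axis) for each gene, 1 point for each of the 8 libraries, with the range of the all-gene median in grey (6.24 to 6.67). MAPT lies left of the grey band in all 8 libraries (0.842 to 2.2), and MARK1, GSK3B, MARK2, MAP4 and MAP2 lie to the right of it.

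No change after AS in the eCLIP value of the 10 genes passed the test. No gene of 19259 tested passed an adjusted p of 0.05 in limma (0.00%) for G3BP1 or G3BP2, and without adjustment 776 (4.03%) and 525 (2.73%) had a p under 0.05, of which 1 and 0 were among the 10. The labels do not say that replicates came from separate cultures, so the p-values measure the spread between these libraries. MAPT had scaled log10 values of 2.39 and 2.45 in Ctrl and 2.47 and 2.06 in AS for G3BP1, and of 2.40 and 2.35 in Ctrl and 2.32 and 2.17 in AS for G3BP2. The AS libraries lay on both sides of the Ctrl libraries for G3BP1 and below both for G3BP2. The change was -0.16 (95% interval -0.49 to 0.18, limma adjusted p = 0.95) for G3BP1 and -0.13 (-0.46 to 0.20, adjusted p = 1) for G3BP2. The G3BP1 value turned to 0.052 without replicate 2 of AS, in which MAPT had a number of 30 before scaling, and was -0.36 without replicate 1 (limma adjusted p = 0.238).

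MAP4 was the gene with an unadjusted p under 0.05, for G3BP1. Its values were 3.53 and 3.33 in Ctrl and 3.63 and 3.67 in AS for G3BP1, and 3.55 and 3.34 in Ctrl and 3.63 and 3.57 in AS for G3BP2, so the AS libraries lay above the Ctrl libraries for both proteins. The change was 0.22 (0.03 to 0.42, limma adjusted p = 0.95) for G3BP1 and 0.16 (-0.04 to 0.36, adjusted p = 1) for G3BP2. Intervals were narrow for the genes with the highest values: GSK3B changed by 0.01 (-0.08 to 0.11) for G3BP1 and -0.03 (-0.12 to 0.06) for G3BP2, and MARK1 by 0.01 (-0.09 to 0.11) and -0.03 (-0.13 to 0.07). Those of CDK5 ran from -0.65 to 0.50 and from -0.39 to 0.75, so that a change of several-fold in either direction would not have been detectable.

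An interaction test compared the effect of AS on G3BP2 with that on G3BP1, and in it no gene passed (0.00%) and 144 genes (0.748%) had an unadjusted p under 0.05, none of the 10 among them. For MAPT the difference was 0.02 (-0.44 to 0.49, limma adjusted p = 1.00). G3BP2 and G3BP1 were also compared over both treatments, where no gene passed (0.00%), 235 (1.22%) had an unadjusted p under 0.05 and none of these was one of the 10. MAPT differed by -0.03 (-0.26 to 0.20), MAP2 by -0.01 (-0.09 to 0.07) and GSK3B by 0.00 (-0.07 to 0.07).

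**Figure D5:**
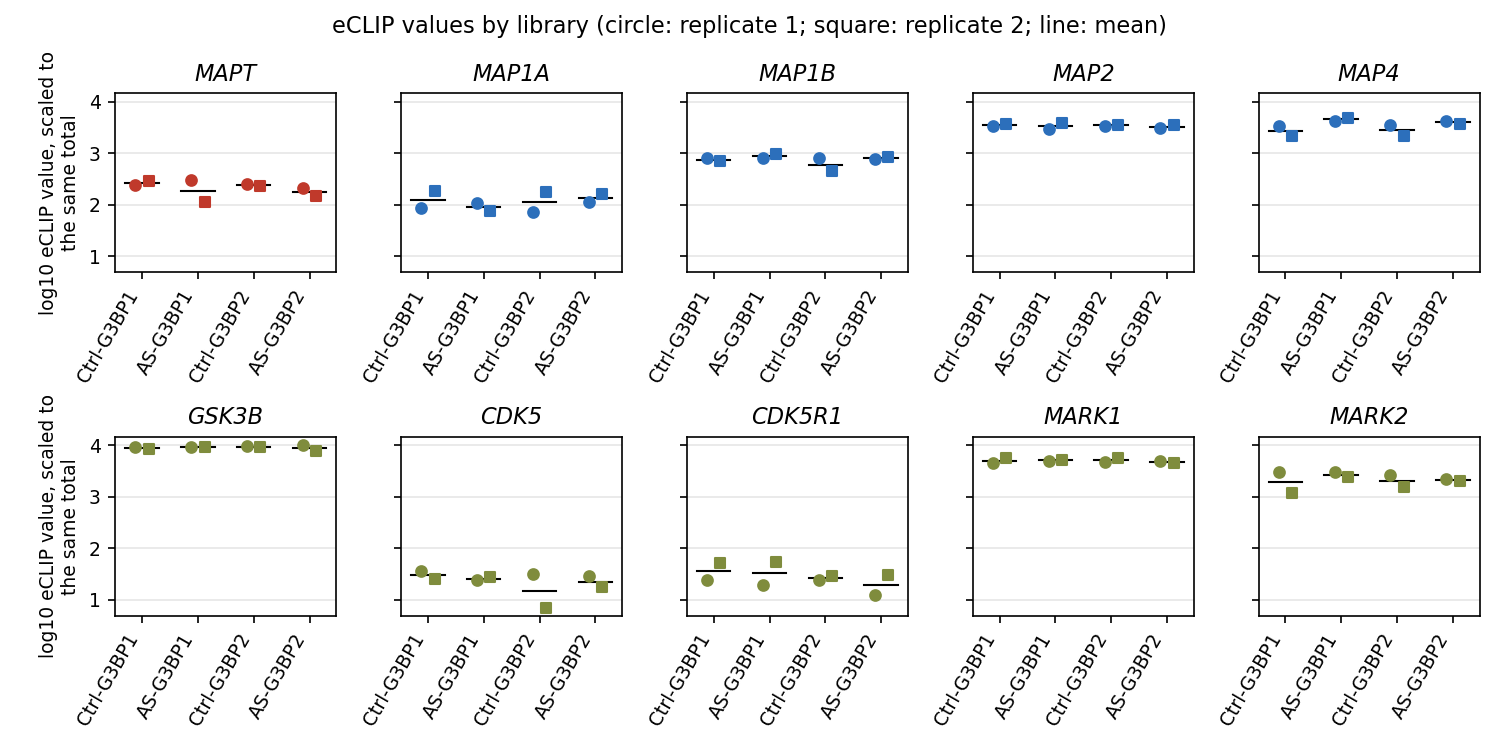
log10 eCLIP value after scaling to the same total for each gene, by protein and treatment, with replicate 1 as a circle, replicate 2 as a square and the mean of the 2 as a line. GSK3B and MARK1 are highest and CDK5 and CDK5R1 lowest in the 8 libraries, and MAP4 is the gene whose AS values lie above the Ctrl values for both proteins with a change of 0.22 for G3BP1 and 0.16 for G3BP2.

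To ask which RNAs moved most like MAPT, its log2 folds against siCtrl in siG3BP1, siG3BP2, Total and SG were compared with those of 10756 genes above 10 TPM in at least 1 library, by the root mean square (rms) difference over these 4 libraries. The 5 nearest were HTT, which encodes huntingtin (rms 0.479), SFMBT2, a chromatin protein of the Polycomb kind (0.484), SAMD4B, an RNA-binding protein of the Smaug family (0.527), RABGAP1, a Rab GTPase-activating protein (0.552), and SYNM, an intermediate filament protein (0.556). HTT measured 17.0 TPM in siCtrl, 4.98 in siG3BP1, 3.89 in siG3BP2, 1.72 in Total and 114 in SG. SAMD4B measured 118, 39.3, 32.8, 18.6 and 288 TPM in the same order.

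The other 9 genes stood further away. MAP1A was the nearest, at rank 135 of the 10756 genes (rms 1.07), followed by MAP4 at rank 475, CDK5R1 at 526, MARK2 at 979 and MARK1 at 1244. MAP1B stood at rank 3692, MAP2 at 5903 and GSK3B at 6102, and CDK5, which was depleted from SG, at rank 10244 (rms 2.97). All 4 folds share the siCtrl library, so this likeness is a description of 5 libraries.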

How the data were processed

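The 10 genes, the 57 genes of the 3 lists and the markers were chosen with earlier results of these data known. Per the labels and the study's methods, the authors aligned RNA-seq reads to GRCh38 with HISAT2 2.1.0 and deposited TPM from StringTie for protein-coding genes in the knockdown, Total and SG libraries. The header of the rRNA-depleted table also says TPM, but the deposited values are RPKM, since value times transcript length gives whole reads (within 0.01 read) for 100% of values above 0 in ctrl and 99.9993% in AS among transcripts with a matched length (141239 of 147282 and 143944 of 150204), at depths of 13291958 and 11281587 reads. Reads summed over transcripts came to 1.75 and 2.07 times these depths. For eCLIP the authors deposited log10 values. Reads had been deduplicated, aligned with STAR and called with CLIPper against input, and which steps the values include is not stated. TPM gives no depth.

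Genes were named by the rule of all 10 listed genes, the list genes with the largest and smallest fold above 10 TPM or RPKM, the 5 genes nearest to MAPT and the MAPT transcripts above 1 RPKM. A gene that meets this rule is not reported here. Folds used value + 1, a 2-fold limit and a minimum of 1. For eCLIP, limma 3.58.1 was run under R 4.3.3 (group means over 8 libraries, trend, Benjamini-Hochberg adjustment at 0.05, genes above 0 in at least 2 libraries). Ratios of reads carry 95% exact intervals. Rows were matched by Ensembl ID to GENCODE 44 (19910 of 19942; the authors used release 41), transcripts of the rRNA-depleted table at 91.1%. Python 3.11.15 was used, and calls were tested on simulated data. Alternatives covered pseudocounts, limits, filters, scaling, transcripts, the replicate block and leaving out each eCLIP library.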

Additional observations from a re-analysis of the deposited data

How the results depend on the processing

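With 1 library per RNA-seq group, a library effect and a treatment effect cannot be told apart, and the eCLIP intervals bound what 2 libraries per group can show. Of 380 recomputed folds of the 10 genes, 31 moved by more than 1.5-fold or changed their call, and 349 did not. No called gene changed direction, but settings that alter only the limit or the filter leave the fold as it was. Some genes that were not called did change sign when the median ratio was scaled to 1. GSK3B in siG3BP1 went from -0.07 to 0.01, and MAP1B in AS against ctrl from 0.17 to -0.11. The count of genes called lower in siG3BP1 was 2 at 1.5-fold (MAPT and MAP1A) and 0 at 4-fold, in siG3BP2 2 at 1.5-fold, and in Total 3 at 4-fold. In AS against ctrl it was 0 with a minimum of 10 RPKM, which the 9.09 RPKM of MAPT in ctrl missed, with the transcript of largest mean and with the most-read transcript, the last chosen after seeing the data; too few reads per transcript to pass 2-fold on RPKM + 1 are the limit there. The genes that hold the motif were 2 by a mean of at least 1 over all transcripts, against 10.2% of all genes and 15.9% of those in the length range.

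In eCLIP none of the 10 genes passed the adjusted p in any alternative. Over all genes, AS called 2 (G3BP1) and 5 (G3BP2) with every row of the table, and 4 and 5 in limma without a trend. Leaving out 1 library gave 0 to 205 genes for G3BP1, 0 for G3BP2, 0 to 24 for the interaction and 0 to 34 for G3BP2 against G3BP1; each upper value came without AS-G3BP1 replicate 1, where the group's lone library is assumed to vary like the others. The change of MAPT for G3BP1 ran from -0.36 to 0.052, the last without AS-G3BP1 replicate 2, and that of MAP4 from 0.13 to 0.32. Libraries with the same replicate number deviated together within a treatment (r = 0.544 and 0.477) and less across treatments (0.110 to 0.176), but only 2 numbers exist and the labels do not say what they share. With the replicate block 0 genes passed for either protein, and with the block on values as deposited, added after seeing the data, 2 and 2. The cause of these shifts was not tested.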
